A study of Mus musculus with 16 samples.

Results

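The cytosolic ribosomal protein genes took 5.77% to 8.47% of all counts in 15 of 16 mouse tumors and 19.8% in the other one, vehicle 4, a library that stood apart. They were chosen by name: protein-coding genes whose GENCODE symbol begins with Rpl or Rps and a digit, or is Rplp0, Rplp1 or Rplp2, with at least 10 counts over the 16 tumors. The kinases whose symbols begin with Rps6k were left out. Of the 22298 genes in the count files, 100 had a matching name, 10 of these were the kinases, 4 had fewer than 10 counts (Rpl39l with 3, Rpl10l, Rpl9-ps1 and Rpl36-ps4 with 0), and 86 remained. The 86 genes held 46 core proteins of the large subunit, 30 core proteins of the small subunit, 5 paralogs of core proteins (Rpl3l, Rpl7l1, Rpl22l1, Rpl36al and Rps27l), 4 near-copies (Rpl10-ps3, Rpl36a-ps1, Rpl9-ps6 and Rps27rt) and Rps19bp1, which encodes a nucleolar protein that binds Rps19 and is not itself a ribosomal protein. Rpsa and Fau encode core proteins of the ribosome under other kinds of symbols and are therefore described beside the 86 and not among them.

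The tumors grew in the abdomen of wild-type mice of the 615 line, aged 6 weeks, after intraperitoneal injection of 500000 MFC cells, a mouse forestomach carcinoma line. Of the 16 tumors, 8 came from mice given the vehicle, phosphate-buffered saline (PBS), and 8 from mice given the cytokine IL-33 at 20 µg per kg, both by the intraperitoneal route every 2 days. The comparison asks how treatment with IL-33 changed gene expression in these tumors. The labels do not tie tumors to mice, and the study's methods give fewer mice per group than the tumors sequenced here, so p-values measure only the spread between these samples. MFC is 1 cell line, and a tumor also holds cells of the host. In bulk tumor RNA, fewer cells of a type and less RNA per cell cannot be told apart.

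Ribosomal proteins are made in near-equal amounts and assemble with ribosomal RNA into the large and the small subunit of the ribosome, the particle that translates mRNA. Their mRNAs are short and very abundant, and in mammals most begin at a C followed by a run of pyrimidines, the 5′ terminal oligopyrimidine (TOP) tract, through which mTOR and the RNA-binding protein Larp1 control their translation. The genes have also left many processed copies in the genome, and some of these copies are annotated as protein-coding genes.

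A pyrimidine run of this kind is shown at the annotated start for 6 of the named members, since it is a sequence feature that was not used to choose these genes. The 30 bases run from 15 before the start to 15 from the start on, on the strand of the gene, from RefSeq on GRCm38.p6. Capitals mark a C followed by at least 5 bases that are each C or T, beginning within 3 bases of the start.
Rpl38, chr11:114668565-114668594, + strand: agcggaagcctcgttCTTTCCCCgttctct
Rplp2, chr7:141447636-141447665, + strand: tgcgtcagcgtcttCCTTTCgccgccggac
Rps18, chr17:33955651-33955680, - strand: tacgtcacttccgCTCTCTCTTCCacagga
Rps21, chr2:180257364-180257393, + strand: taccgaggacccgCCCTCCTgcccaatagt
Rps27, chr3:90213634-90213663, - strand: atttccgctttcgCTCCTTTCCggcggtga
Rpl22l1, chr3:28805493-28805522, + strand: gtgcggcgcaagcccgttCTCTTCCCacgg
Such a run was found on the gene's strand in this window for 25 of the 63 members with an entry, or 39.7%. A run was found for 9.39% of 12667 other protein-coding genes with at least 10 counts and in 7.21% of all 32851 promoter entries. Among the mitochondrial ribosomal proteins, whose genes lie in the nucleus and are not known as TOP genes, 4 of 69 had it. Rps21 has a second entry without the run. Other named members, among them Rpl10, Rplp0, Rps2, Rps15 and Rps3a1, had no run in their windows, which are not printed. A window without the letters says nothing of the mRNA, because the annotated start can lie some bases away from the start used in these tumors.

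The coding sequences show where a read that lies within them cannot tell members apart. Rps27 and Rps27rt have the same 252 coding bases, with 0 differing positions, and Rpl10 and Rpl10-ps3 have the same 642 coding bases, also with 0 differing positions. Rpl9 and Rpl9-ps6 differ at 1 of 576 coding bases and Rpl36a and Rpl36a-ps1 at 7 of 318. The paralogs are farther away: Rps27l differs from Rps27 at 60 of 252 coding bases and Rpl36al from Rpl36a at 39 of 318. For the Rps27 and Rpl36a sets, 30 coding bases are given from GENCODE M21 transcripts on GRCm38 with the positions that differ within the set in capitals. They run from coding base 6 to 35 for the Rps27 set and from 115 to 144 for the Rpl36a set, counted from the A of the start codon.
Rps27, gene at chr3:90212522-90213651, - strand: TctCgcAaAGgatctCCtTcaTccCtcTCC
Rps27rt, gene at chr9:114982366-114982739, - strand: TctCgcAaAGgatctCCtTcaTccCtcTCC
Rps27l, gene at chr9:66946086-66949516, + strand: CctGgcTaGAgatctGTtAcaCccTtcCTT
Rpl36a, gene at chrX:134585654-134588062, + strand: cGgcgTtaCgaCAgGaaAcagagtGgctaT
Rpl36a-ps1, gene at chr14:98993870-98994318, - strand: cAgcgCtaTgaCAgGaaAcagagtAgctaT
Rpl36al, gene at chr12:69182731-69184083, - strand: cGgcgCtaCgaTCgCaaGcagagtGgctaC
Over the 86 members, the share of 50-base stretches of the coding transcript that also occur in another annotated gene had a median of 62.9%, and it was over 50% for 53 members. It reached 98.6% for Rps27 and was 0 for 3 members, among them Rpl3l and Rps19bp1. How the authors' counting placed reads that match several genes is not given in the sources used here, so the split of counts between a gene and its copies is uncertain.

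The total count lay between 14139268 and 24290794 per tumor, and vehicle 5, with 14160269, was close to the lowest. Vehicle 4 had the lowest total, a TMM scaling factor of 0.640 where the other vehicle tumors had 0.982 to 1.06, and counts shifted to short genes: over 11475 expressed genes that are not members, the slope of its log2 deviation from the mean of all tumors was -0.572 for each doubling of the length of the exon union, against -0.168 in vehicle 7, -0.261 in IL-33 3 and -0.029 to 0.138 in the other 13 tumors. Its summed level of 7 red blood cell genes was 12805 CPM (counts scaled to a total of 1000000 per tumor), against 171 to 1078 in the other vehicle tumors and 51.2 to 2846 in the IL-33 tumors. All 7 of these genes were more than 2-fold above the median of the other vehicle tumors, beside 11.3% of all genes. Their median coding transcript has 703 bases, beside 2636 over all genes tested. Its 7 neutrophil genes summed to 496 CPM, against 49.8 to 170 and 59.6 to 194. Of these 7 genes, 4 were more than 2-fold above the vehicle median and 1 was under it. IL-33 7 had 1517 CPM of ovary and uterus genes, where none of the other 15 tumors had more than 64.2. The epithelial gene Epcam had 0.0707 CPM in vehicle 4, 0.148 to 0.642 CPM in the other vehicle tumors and 0.0541 to 98.8 CPM in the IL-33 tumors with a median of 0.685, so this defining marker of a carcinoma was near 0 in most tumors. The epithelial keratin Krt8 was present, at 975 CPM in vehicle 4, 241 to 712 CPM in the other vehicle tumors and 181 to 674 CPM in the IL-33 tumors. Whether red blood cells, neutrophils or RNA of another length distribution had a part in the values of vehicle 4 was not tested.

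The levels of the members spanned a wide range, and they are compared here per length, as mean CPM over the 16 tumors per kilobase of the union of a gene's exons. The highest were Rplp1 with 3875 CPM per kilobase and Rplp0 with 2211, both of the P stalk that recruits translation factors to the large subunit, followed by the small subunit genes Rps2 with 1744, Rps15 with 1503 and Rps3a1 with 1496. Per kilobase, the median over the 86 members was 375. The lowest were Rpl3l with 0.263, Rpl36a-ps1 with 2.30, Rpl22l1 with 10.2, Rpl9-ps6 with 15.9 and Rps18 with 20.7 CPM per kilobase. Rpl3l encodes the form of Rpl3 known from striated muscle, and it had 153 counts over all 16 tumors, where Rpl3 had 481584. Rps18 was the lowest of the 76 core genes, and 86.7% of its 50-base stretches occur in other annotated genes. With the length of the coding transcript in place of the exon union, 2 of the 5 highest and 4 of the 5 lowest members were the same, and Rps2, Rpl41, Rpl13 and Rps12 then followed Rplp1. Without vehicle 4, Rps15 left the 5 highest and Rpl8, with 1311 CPM per kilobase, entered, after Rps3a1 with 1388, while the 5 lowest were the same genes. Per kilobase, neighbours such as Rps15 and Rps3a1 lay within the spread between tumors. The paralogs, the near-copies and Rps19bp1 together held 1.86% of the members' counts, and the 10 members with the most counts held 28.9%.

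**Figure D1:**
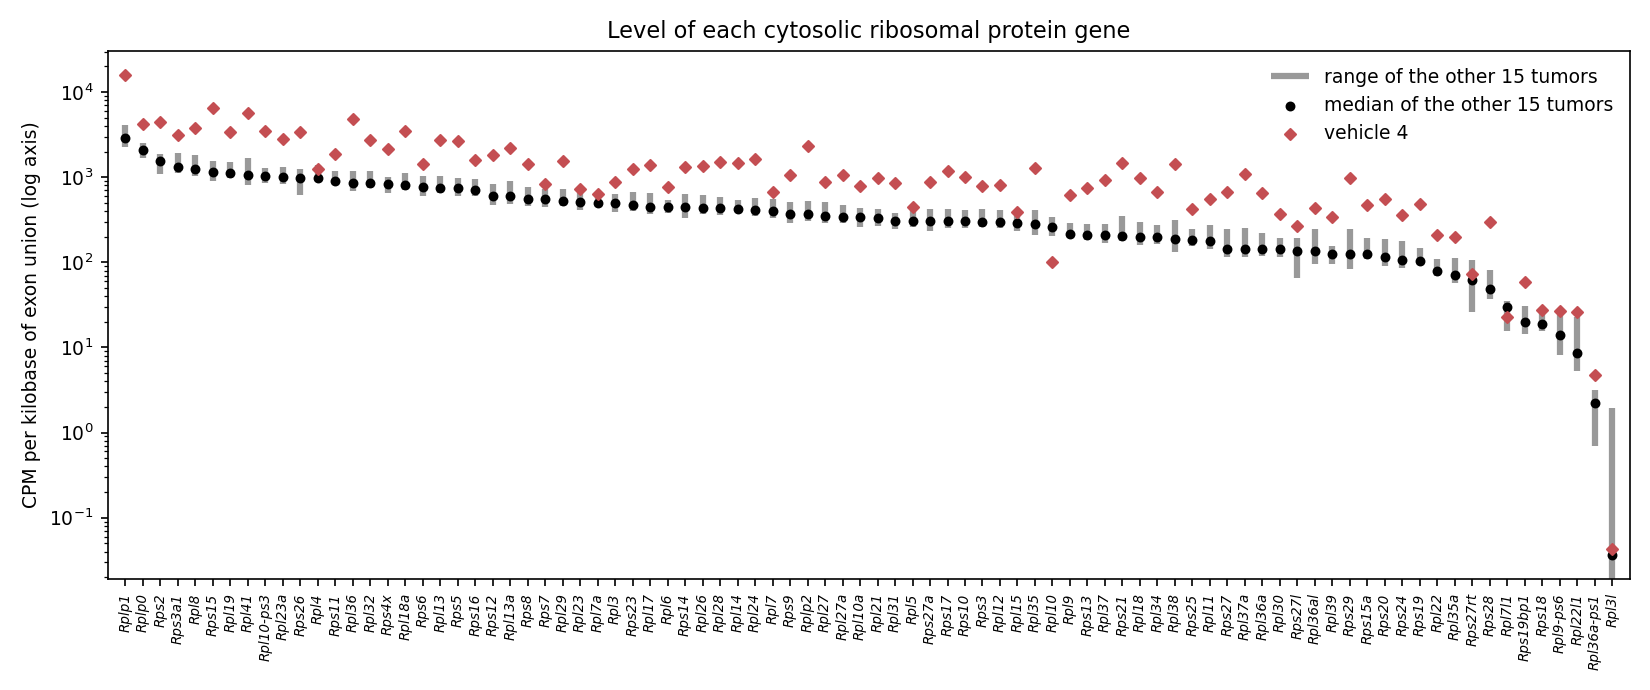
CPM per kilobase of exon union (log axis) for each of the 86 genes, ordered by the median of the 15 tumors other than vehicle 4 (black points), with the range of those 15 tumors as gray bars and vehicle 4 as red diamonds. The red diamonds lie above the bars for most genes, and Rpl10 and Rpl7l1 are under the median, while the bar of Rpl3l reaches 0 and runs off the log axis.

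The share of counts on the 86 genes was 6.19%, 6.39%, 5.85%, 19.8%, 6.28%, 5.89%, 7.84% and 6.97% in vehicle 1 to 8. It was 7.39%, 7.01%, 8.45%, 5.77%, 6.94%, 8.47%, 6.91% and 6.24% in IL-33 1 to 8. Vehicle 4 was above every other tumor, IL-33 6 and IL-33 3 were the highest of the rest, and the groups overlapped. The vehicle mean was 8.15% ± 4.76 (SD, n = 8) with vehicle 4 and 6.49% ± 0.70 (SD, n = 7) without it, against 7.15% ± 0.951 (SD, n = 8) in the IL-33 tumors. The group difference of log2 share was -0.07 with vehicle 4 and 0.14 without it, so its direction turned with this library, and both values are smaller than the spread within groups. With vehicle 4 set aside, the share in 6 of 8 IL-33 tumors exceeded the mean of the 7 remaining vehicle tumors, and in 2 it exceeded the highest of them. A sum over the members was given no test. The 95% Wilson interval of a tumor's share was at most 0.0416 percentage points wide and covers counting error only. Relative to TMM effective library sizes the share was 31.0% in vehicle 4, 5.70% to 7.46% in the other vehicle tumors and 5.26% to 9.46% in the IL-33 tumors.

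Large and small subunit genes kept a close ratio from tumor to tumor. The ratio of counts on the 46 large subunit genes to counts on the 30 small subunit genes was 1.62 ± 0.0506 (SD, n = 8) in the vehicle tumors and 1.62 ± 0.0399 (SD, n = 8) in the IL-33 tumors. It ranged from 1.53 in vehicle 7 to 1.70 in vehicle 6, and at 1.59 vehicle 4 lay within that range. The near-copies took 0.273% of the counts in vehicle 4, 0.070% to 0.099% in the other vehicle tumors and 0.067% to 0.104% in the IL-33 tumors. Most of this was Rpl10-ps3, with 2681 CPM in vehicle 4, where Rps27rt had 27.2, Rpl9-ps6 19.1 and Rpl36a-ps1 2.12. Over the median of the other vehicle tumors, Rpl10-ps3 was 3.49-fold, Rps27rt 1.16-fold, Rpl9-ps6 1.93-fold and Rpl36a-ps1 1.97-fold in vehicle 4. Mitochondrial ribosomal proteins, the nuclear-encoded proteins of the ribosome inside mitochondria, took 0.5259% of the counts in vehicle 4 and 0.245% to 0.379% in the other vehicle tumors.

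**Figure D2:**
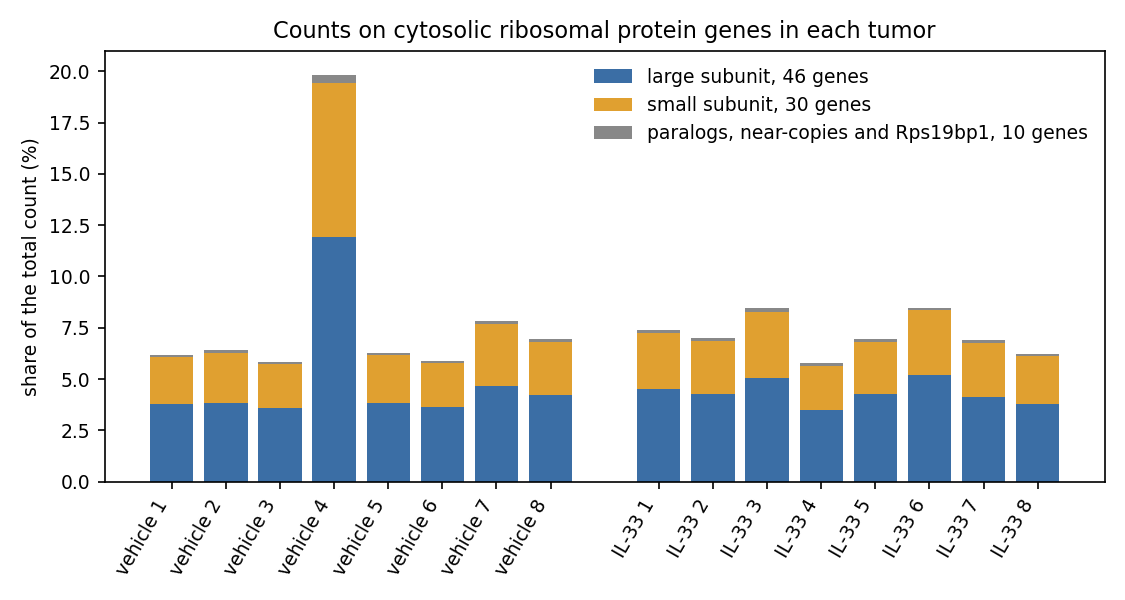
Share of each tumor's total count (%) on the 46 large subunit genes (blue), the 30 small subunit genes (yellow) and the other 10 members (gray), for the 8 vehicle and the 8 IL-33 tumors. Vehicle 4 reaches 19.8%, and the other 15 tumors lie between 5.77% and 8.47%.

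Within vehicle 4 the members did not move by 1 common factor. Each member's CPM in vehicle 4 was divided by its median in the other 7 vehicle tumors. The median of this fold was 3.14 over the 86 members and 0.648 over the 16817 genes tested, and 70 of 86 members were more than 2-fold higher, beside 11.3% of all genes. With TMM scaling in place of total counts, as in the fits, the medians were 5.03 and 1.04, 82 members were more than 2-fold higher, beside 24.1% of all genes, and Rpl10 at 0.601 was the 1 member under the vehicle median, beside 48.6%. In CPM, Rpl38 had the highest fold at 9.01, followed by Rpl37a at 8.05, Rps29 at 7.92, Rps21 at 7.34 and Rplp2 at 6.79, and the coding transcripts of these genes have 345 to 558 bases, though the exon unions of Rplp2 and Rpl37a have 2072 and 1410. At the other end were Rpl10 at 0.385 and Rpl7l1 at 0.750, the 2 members under the vehicle median, where 64.9% of all genes lay. Vehicle 4 was the highest of all 16 tumors for 79 members, beside 9.82% of all genes. By a rule on the gap to the nearest other vehicle tumor 76 members stood out as high in vehicle 4, beside 8.01% of all genes. The 7 members not highest there were Rpl10, Rpl3l, Rpl4, Rpl7a, Rpl7l1, Rps18 and Rps27rt. These names were chosen after their values were seen.

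Folds in vehicle 4 were higher for shorter transcripts up to 2000 bases, and at the same length the members were above other genes. For the 16 members with a coding transcript under 500 bases the median fold was 5.11, and for 62 non-member genes of that length with a mean over 10 CPM it was 2.79. From 500 to 750 bases it was 3.21 for 28 members and 2.22 for 240 other genes, and from 750 to 1000 bases 3.05 for 25 members and 1.66 for 370 other genes. From 1000 to 2000 bases it was 2.41 for 15 members and 0.984 for 2141 other genes. The 2 members from 2000 to 4000 bases had 3.30, where 3825 other genes had 0.544. The gap between members and other genes was thus present in each of these 5 length classes. Across the 86 members, the log2 fold had a Spearman correlation of -0.45 and a Pearson correlation of -0.39 with log2 coding transcript length, and of -0.17 and -0.18 with the log2 length of the exon union, as a description of genes that share their libraries. Members with a pyrimidine run in the start window had a median fold of 3.55 and those without it 2.86, with median coding transcripts of 712 and 790 bases. In vehicle 7 and IL-33 3, the other 2 tumors with counts shifted to short genes, the 16 shortest members had a median fold of 1.47 and 1.39 over the rest of their groups without vehicle 4, and the other genes under 500 bases had 1.47 and 1.52. The order was mixed in the longer classes: from 1000 to 2000 bases the members had 1.24 and other genes 1.19 in vehicle 7, against 1.17 and 1.27 in IL-33 3, and the 2 members from 2000 to 4000 bases had 1.32 and 1.20, where other genes had 0.999 and 0.978.

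**Figure D3:**
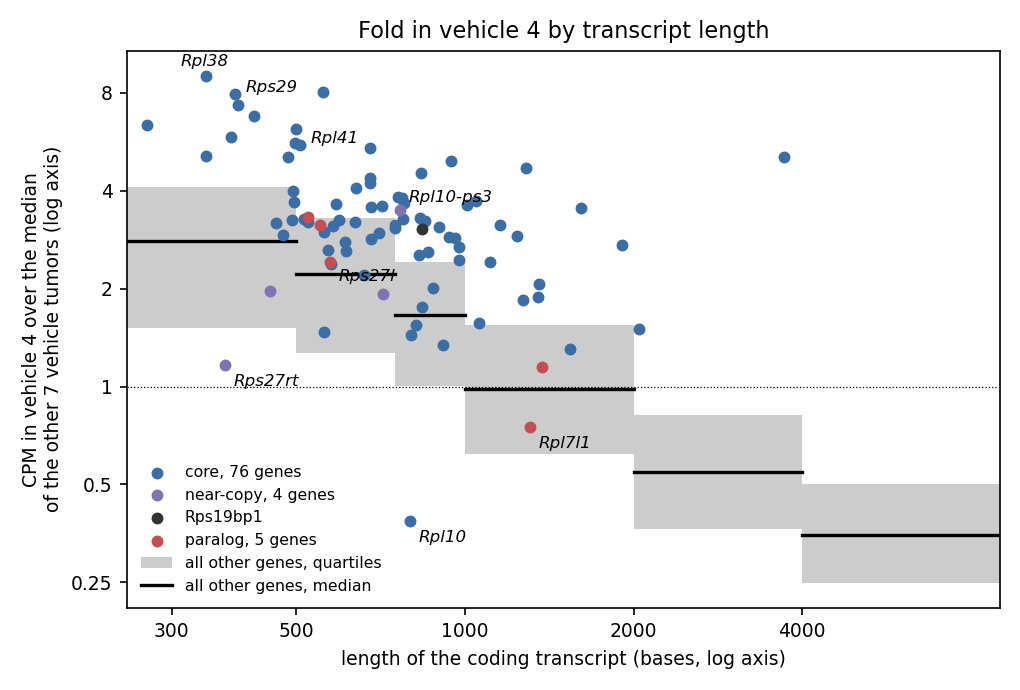
CPM in vehicle 4 over the median of the other 7 vehicle tumors (log axis) against the length of the coding transcript in bases (log axis) for the 86 genes, colored by class, with the median (black lines) and quartiles (gray boxes) of all other genes in each length class. Most members lie above the gray boxes, from 9.01 for Rpl38 down to 0.385 for Rpl10.

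Rpl10 and its copy had opposite values in vehicle 4. Rpl10 (ENSMUSG00000008682, chrX:74270812-74273135, + strand) encodes a protein that joins the large subunit late in its assembly. It had 205 CPM in vehicle 4, 430 to 567 CPM in the other vehicle tumors with a median of 532, and 414 to 706 CPM in the IL-33 tumors with a median of 554. Rpl10-ps3 (ENSMUSG00000058443, chr9:50344201-50344968, - strand) had 2681 CPM in vehicle 4, 666 to 951 CPM in the other vehicle tumors with a median of 768, and 658 to 996 CPM in the IL-33 tumors with a median of 852. The summed CPM of the 2 genes was 2886 in vehicle 4, which is 2.23 times the median of 1293 in the other vehicle tumors and thus on the side of the other members. The exon union of Rpl10 is 2053 bases and its coding transcript 799, while Rpl10-ps3 is a single exon of 768 bases. Rps27rt showed the same kind of gap to its source: Rps27 was 5.13-fold higher in vehicle 4, Rps27rt 1.16-fold, and the sum of both 4.58-fold. The part of read placement in these values was not tested.

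No member passed the test between the groups after correction. In the edgeR quasi-likelihood test with Benjamini-Hochberg adjustment over all 16817 genes tested, 0 of 86 members had an adjusted p under 0.05 (0.0% of all genes), and 0 had an unadjusted p under 0.05 in either direction, beside 9.99% of all genes for higher in IL-33 and 1.17% for lower. DESeq2 and limma voom with sample weights also called 0 members after adjustment. DESeq2 gave 2 members higher in IL-33 at an unadjusted p under 0.05 (Rps24 and Rps14), beside 2.52% of all genes, and 0 lower, beside 1.59%. Without vehicle 4 it gave 4 higher (Rps24, Rps14, Rps6 and Rpl15), beside 2.46%, and 0 lower, beside 1.28%. The fitted log2 fold change of IL-33 over vehicle was under 0 for 85 of 86 members, beside 41.7% of all genes, and above 0 for 1, beside 58.3%, with a median of -0.42, beside 0.06 over all genes. Without vehicle 4 it was above 0 for 81 of 86 members, beside 60.8% of all genes, with a median of 0.15, beside 0.07. The direction also turned with the method on all 16 tumors, since DESeq2 put 65 members above 0 with a median of 0.13 and limma voom 81 with a median of 0.12. Both methods can reduce the pull of an outlying tumor, DESeq2 by replacing outlying counts and limma voom by its sample weights. This turn therefore cannot be told apart from the turn without vehicle 4. The members share their libraries, so these counts are not independent votes. Without vehicle 4 all 76 core genes were above 0, from 0.01 for Rps21 to 0.28 for Rps24, and the 5 members under 0 were Rpl3l, Rps27rt, Rpl7l1, Rps19bp1 and Rpl9-ps6.

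**Figure D4:**
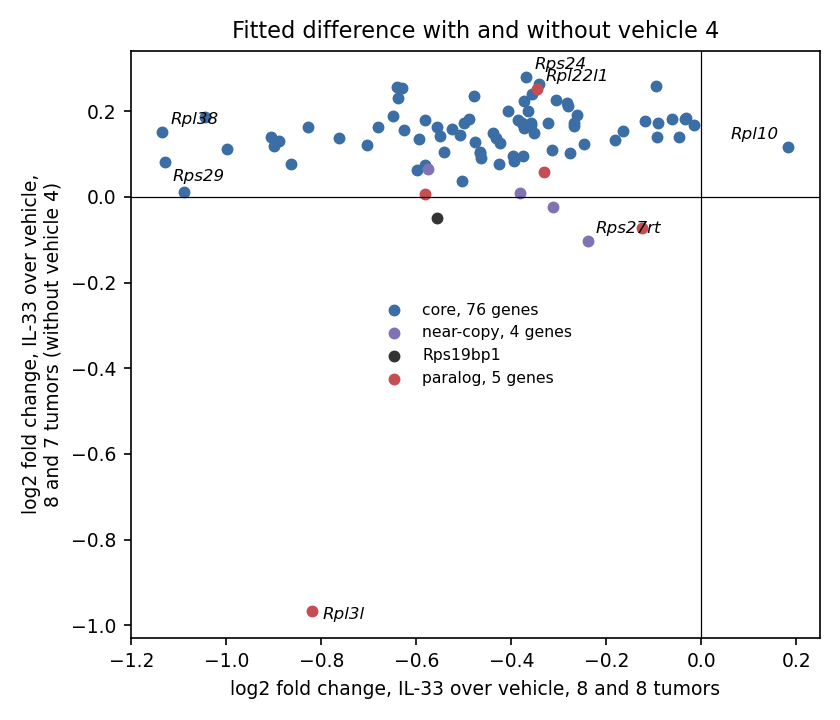
Fitted log2 fold change of IL-33 over vehicle for the 86 genes with all 8 vehicle tumors (horizontal) and with the 7 vehicle tumors other than vehicle 4 (vertical), colored by class. With all tumors 85 genes lie left of 0, and without vehicle 4 81 genes lie above 0.

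The members with the smallest p were the ones highest in vehicle 4. Rps21 (ENSMUSG00000039001, chr2:180257377-180258445, + strand), a small subunit protein whose start window is printed among those with a run, had 1205 CPM in vehicle 4. The other vehicle tumors had 163 to 282 CPM of Rps21 with a median of 164, and the IL-33 tumors 144 to 278 with a median of 179. Its log2 fold change was -1.09 (SE 0.52) with all tumors (edgeR quasi-likelihood test, adjusted p = 0.447) and 0.01 (SE 0.18) without vehicle 4 (adjusted p = 0.993). Apart from vehicle 4, the groups thus overlapped nearly whole.

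Rps29 (ENSMUSG00000034892, chr12:69157722-69159186, - strand) encodes a zinc-binding protein of the small subunit. It had 683 CPM in vehicle 4, 58.1 to 172 CPM in the other vehicle tumors with a median of 86.2, and 76.6 to 151 CPM in the IL-33 tumors with a median of 93.8. Its log2 fold change went from -1.13 (SE 0.56) to 0.08 (SE 0.21) without vehicle 4. Rpl38 (ENSMUSG00000057322, chr11:114668524-114672331, + strand), a large subunit protein known from mouse mutants with changed translation of Hox mRNAs, had 781 CPM in vehicle 4, 71.3 to 169 in the other vehicle tumors with a median of 86.7, and 83.8 to 158 in the IL-33 tumors with a median of 109. The log2 fold change of Rpl38 went from -1.14 (SE 0.57) to 0.15 (SE 0.19). Rplp2 of the P stalk (ENSMUSG00000025508, chr7:141447370-141451585, + strand) and the large subunit gene Rpl37a (ENSMUSG00000046330, chr1:72711290-72713813, + strand) had the same pattern, with log2 fold changes of -0.998 and -1.04 with all tumors and 0.11 and 0.19 without vehicle 4. For these genes too the other 7 vehicle tumors and the IL-33 tumors overlapped.

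In the other direction Rpl10 alone had a fitted log2 fold change above 0 with all tumors, at 0.18 (SE 0.17, edgeR quasi-likelihood test, adjusted p = 0.755), and without vehicle 4 it was 0.12 (SE 0.15). Without vehicle 4, 1 member had an unadjusted p under 0.05, beside 8.96% of all genes for higher in IL-33, and 0 were lower, beside 0.708%. The 1 member was Rps24 (ENSMUSG00000025290, chr14:24487125-24496959, + strand), a small subunit protein mutated in some patients with Diamond-Blackfan anemia, named here after its values were seen. It had 632 to 1102 CPM in the IL-33 tumors with a median of 720, and 535 to 850 CPM in the 7 vehicle tumors with a median of 631. All 8 IL-33 tumors were above that vehicle median and 3 were above all 7 vehicle tumors, with IL-33 7 the highest. The log2 fold change of Rps24 was 0.28 (SE 0.13, edgeR quasi-likelihood test, adjusted p = 0.516) without vehicle 4 and -0.37 (SE 0.37) with it. Without both vehicle 4 and IL-33 7, and with length correction without vehicle 4, Rps24 was no longer among the members with an unadjusted p under 0.05.

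The P stalk and Rpsa and Fau, which the name rule missed, had values like those of the core genes. Rplp0 had 7043 CPM in vehicle 4 and 3000 to 3685 CPM in the other vehicle tumors, and Rplp1 had 7983 CPM against 1125 to 1799. In the IL-33 tumors Rplp0 had 2824 to 4235 CPM and Rplp1 1234 to 2046 CPM, so both overlapped with the vehicle tumors other than vehicle 4. Rpsa, the small subunit protein that is also known as the laminin receptor, was 4.53-fold higher in vehicle 4, and Fau, which encodes Rps30 fused to a ubiquitin-like protein, 6.08-fold. Their log2 fold changes were -0.63 and -0.87 with all tumors and 0.19 and 0.15 without vehicle 4.

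The median spread of the members between tumors fell once vehicle 4 was left out. The SD of log2 CPM over tumors, with TMM scaling, had a median of 0.62 over the 86 members with all 16 tumors and 0.27 with 15. Without vehicle 4 it was under 0.5 for 84 members. This SD is not given for other genes, so whether members vary less than genes of like level was not tested. The largest with all tumors were Rpl3l at 1.57, Rpl38 and Rps29 at 0.97, Rpl37a at 0.93 and Rps21 at 0.91. For the last 4 genes it was 0.34 to 0.41 without vehicle 4, while Rpl3l stayed at 1.63. Rpl3l was at 3.21 CPM in vehicle 8 and 2.04 CPM in IL-33 1 and under 1 CPM in the other 14 tumors.

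A paralog and its core partner in 4 pairs had enough counts to be compared within tumors. The measure was paralog counts in percent of partner counts, which does not depend on how tumors are scaled. It can still depend on a shift of counts by transcript length, as in vehicle 4, and on read placement. The coding transcripts have 575 bases for Rps27l and 345 for Rps27, and 552 for Rpl22l1 and 474 for Rpl22. They have 526 bases for Rpl36al and 483 for Rpl36a, and 1310 for Rpl7l1 and 838 for Rpl7. In vehicle 4 the ratio was the lowest vehicle value for 3 pairs and the highest for Rpl22l1. The part of length was not tested. Rps27l, a gene known to respond to p53, had counts of 30.8% to 84.9% of Rps27 in the vehicle tumors with a median of 63.3% and 20.8% to 81.4% in the IL-33 tumors with a median of 63.2%. The lowest values were 20.8% in IL-33 7 and 30.8% in vehicle 4, and the other 14 tumors lay at 54.0% or above. Rpl22l1, whose level is known to respond to loss of Rpl22, had 6.40% to 8.55% of Rpl22 in the vehicle tumors and 5.06% to 16.5% in the IL-33 tumors, with 16.5% in IL-33 7 and 8.31% in the next IL-33 tumor.

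Rpl36al had 55.6% to 96.4% of Rpl36a in the vehicle tumors and 39.7% to 92.3% in the IL-33 tumors, and the lowest of each group was again vehicle 4 and IL-33 7. Rpl7l1, a protein that takes part in ribosome assembly, had 4.34% of Rpl7 in vehicle 4, 8.59% to 10.2% in the other vehicle tumors and 4.16% to 12.4% in the IL-33 tumors. The vehicle tumors other than vehicle 4 lay close together for this pair, while the IL-33 tumors spread to both sides. In a two-sided exact permutation test over all 12870 assignments of tumors to groups, for which 0.0002 is the smallest possible p, none of the 4 log2 ratios passed the test. The differences of IL-33 minus vehicle were -0.08 for Rps27l (p = 0.768), -0.04 for Rpl22l1 (p = 0.887), -0.14 for Rpl36al (p = 0.433) and -0.12 for Rpl7l1 (p = 0.612), and the adjusted p over the 4 pairs was 0.887 for each in this permutation test. Without vehicle 4 the differences were -0.22 for Rps27l, -0.01 for Rpl22l1, -0.21 for Rpl36al and -0.27 for Rpl7l1, with adjusted p of 0.499 to 0.981 in the exact permutation test over 6435 assignments. The paralogs Rpl39l, Rpl3l and Rpl10l were under a mean of 1 CPM, and Rps4l was not matched by symbol.

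**Figure D5:**
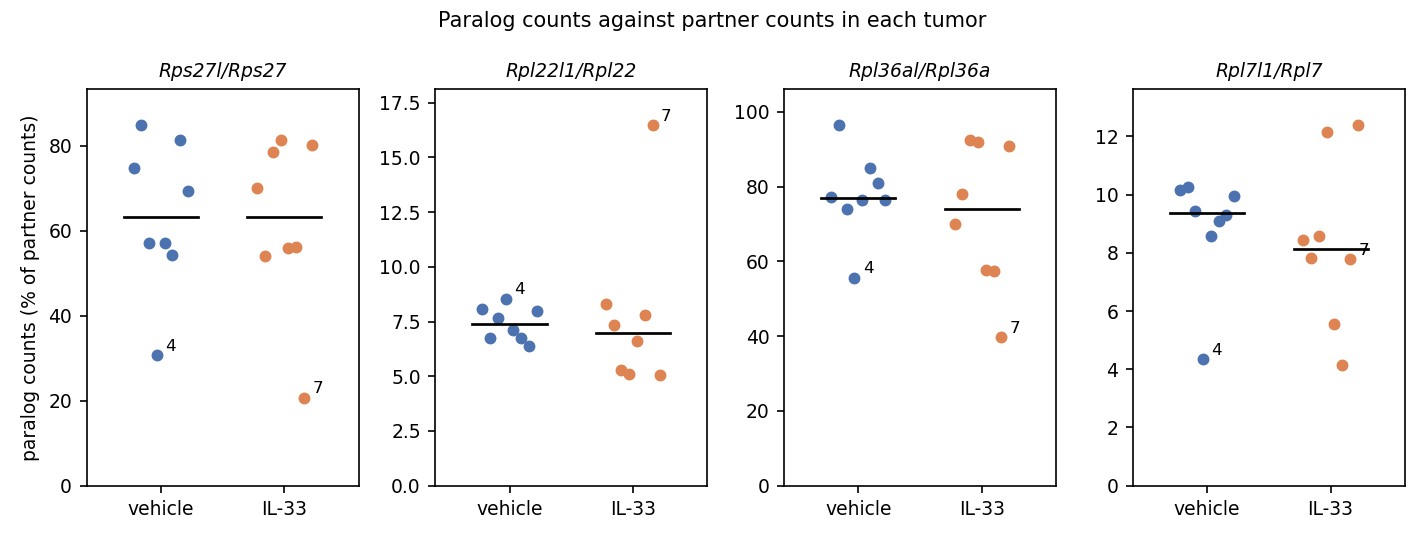
Counts of 4 paralogs in percent of the counts of their core partners in the 8 vehicle (blue) and the 8 IL-33 (orange) tumors, with the median of each group as a line and vehicle 4 and IL-33 7 marked by their numbers. The groups overlap for each pair, and IL-33 7 is lowest for Rps27l and Rpl36al and highest, at 16.5%, for Rpl22l1.

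Other lists of genes of ribosome production and translation had a lower median fold in vehicle 4 than the members. The TOP translation, RNA polymerase I and mitochondrial ribosomal protein lists still lay above all genes tested. Beside 0.648 over all genes tested, the median fold in vehicle 4 was 0.619 over 35 ribosome biogenesis genes, 0.937 over 14 RNA polymerase I genes, 1.74 over 16 translation factor genes with TOP mRNAs, 1.51 over 78 mitochondrial ribosomal proteins and 0.446 over 26 genes of growth control. With TMM scaling the medians of these lists were 1.03, 1.46, 2.77, 2.43 and 0.706, beside 5.03 for the members and 1.04 over all genes tested. These lists also have longer coding transcripts than the members. Their median lengths are 2491 bases for biogenesis, 2224 for polymerase I, 1891 for TOP translation, 1284 for mitochondrial ribosomal proteins and 4229 for growth control. The lists were not matched for length, and the part of length in their folds was not tested. In CPM, 2 of 35 biogenesis, 2 of 14 polymerase I, 6 of 16 TOP translation and 1 of 26 growth control genes were more than 2-fold higher in vehicle 4. So were 28 of the 78 mitochondrial ribosomal proteins, beside 11.3% of all genes. Eef1a1, the TOP gene of the elongation factor that brings tRNA to the ribosome, was at 9807 CPM in vehicle 4 and 11007 to 12834 CPM in the other vehicle tumors, while with TMM scaling it was at 15325 and 10480 to 13070, so its place turned with the scaling. The coding transcript of Eef1a1 is 1794 bases long, where the median of the members is 713.

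In these lists 0 genes had an adjusted p under 0.05 in the edgeR quasi-likelihood test with or without vehicle 4. At an unadjusted p under 0.05 with all tumors, 0 biogenesis, 0 polymerase I and 0 TOP translation genes were counted, 1 mitochondrial ribosomal protein was lower and 3 growth control genes were higher, beside the 1.17% and 9.99% of all genes. Fitted values under 0 were held by 30 of 35 biogenesis genes with all tumors and 28 without vehicle 4, by 11 and 7 of 14 polymerase I genes, and by 74 and 44 of 78 mitochondrial ribosomal proteins. For TOP translation genes the counts were 11 and 2 of 16, and for growth control genes 10 and 11 of 26. Over all genes the shares under 0 were 41.7% with all tumors and 39.2% without vehicle 4. The median of the mitochondrial ribosomal proteins was thus -0.24 with vehicle 4 and -0.01 without it.

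Among the genes named for the smallest p of their lists, Bop1 (log2 fold change -0.36) and Nop2 (-0.33) act in assembly of the large subunit, Cd3eap (-0.51) and Polr1d (-0.41) belong to RNA polymerase I, Eef1d (-0.56) and Eif3k (-0.43) to translation factors, and Mrpl23 (-0.91) and Mrps21 (-0.87) to the mitochondrial ribosome. Without vehicle 4 their values lay between -0.24 for Bop1 and 0.10 for Eif3k. Mycl and Mycn, relatives of Myc, had log2 fold changes of 3.30 and 3.33 that came from IL-33 7, with 32.0 and 10.2 CPM there and less than 1 CPM in every vehicle tumor. Myc, which drives transcription of ribosome genes, had 79.5 CPM in vehicle 4, 108 to 145 CPM in the other vehicle tumors and 83.0 to 149 CPM in the IL-33 tumors, with a log2 fold change of 0.01 (SE 0.13). With TMM scaling, Myc, Larp1 and Npm1 in vehicle 4 lay within the range of the other vehicle tumors. Larp1, which binds the TOP tract, had 190 CPM in vehicle 4, 291 to 370 CPM in the other vehicle tumors and 177 to 428 CPM in the IL-33 tumors (log2 fold change -0.14, SE 0.16). Npm1, a nucleolar chaperone of ribosome assembly, had a log2 fold change of 0.07 (SE 0.18). In CPM, the IL-33 tumors thus reached above and below the vehicle tumors other than vehicle 4 for both Myc and Larp1.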

How the data were processed

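Poly(A)-selected RNA of 16 tumors had been sequenced. Per the labels, the submitters' processing notes name HISAT2, featureCounts and the build mm10, with no versions. The annotation release, the use of strand and the placement of reads that match several genes are not given in the sources used here. The authors deposited raw read counts per gene, and no per-sample column was left unused. Identifiers were paired with GENCODE M21 (GRCm38), which named 22255 of 22298 genes. No pair of tumors of a group agreed within sampling noise. The lowest median chi-square per gene was 1.64, for IL-33 4 and IL-33 8. Vehicle 5 and vehicle 6 followed at 1.68, and the next pair, vehicle 3 and vehicle 5, had 2.88. Whether close pairs came from the same mouse was not tested. The main tests treated all 16 tumors as independent.

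All 16817 genes with at least 10 counts were fitted with edgeR 4.0.16 (R 4.3.3; TMM, glmQLFit, glmQLFTest, Benjamini-Hochberg adjustment), group only, and the values of the ribosomal protein genes were read from that fit. CPM is relative to the total count. Paralog ratios used a pseudocount of 0.5. The scripts were tested on simulated data. Alternatives were DESeq2 1.42.0, limma 3.58.1, other scaling, filters, length corrections (loess span 0.5), a replicate block and tumors left out. Named members were, by rule, those with the 5 smallest p in each direction, the 5 highest and 5 lowest levels per kilobase, the 5 largest SDs, the paralogs with their partners, the P stalk genes and Rps19bp1. For other lists they were the 2 genes with the smallest p, and 1 gene named outside the members is not reported here. Vehicle 4 folds with TMM scaling and levels without vehicle 4 were added after seeing the data. The members, lists and rules were chosen with earlier results of these data known.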

Additional observations from a re-analysis of the deposited data

Results flagged for a closer look

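In a group of 8 tumors, a value stood out where its gap to the nearest other tumor, divided by the range of the group, passed Dixon's 95% critical value. For independent normal values, chance gives this in about 1 of 20 groups, at either end and in any tumor. The counts for vehicle 4 take 1 tumor and 1 end, in CPM, so this rate is no reference for them. Among the 86 ribosomal protein genes, 76 were high in vehicle 4 by this criterion, beside 8.01% of all genes tested. The share of counts on the members stood out in vehicle 4 at 19.8%. Among members high in vehicle 4, in CPM, were Rps21 at 1205, Rps29 at 683, Rpl38 at 781, Rplp2 at 4870, Rpl37a at 1518, Rplp1 at 7983, Rplp0 at 7043, Rps2 at 8189, Rps15 at 4134 and Rps3a1 at 3041. Others high there were Rpl22l1 at 52.3, Rps27 at 708, Rpl22 at 612, Rpl36al at 594, Rpl36a at 1068, Rpl39 at 490.4, Rpl3 at 2759, Rps4x at 3514, Rpl7 at 1821 and Rps19bp1 at 64.1 CPM. Rpl10 was low in vehicle 4 at 205 CPM, and so was the ratio of Rpl7l1 to Rpl7 at 4.34%.

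Outside the members, vehicle 4 was high for Rpsa at 9223, Fau at 3325, Eef1d at 836, Eif3k at 526, Cd3eap at 65.1, Polr1d at 375, Mrpl23 at 283 and Mrps21 at 111 CPM, and low for Larp1 at 190 CPM. IL-33 3 was high for Rpl36al at 336, Rpsa at 3425, Eef1d at 443 and Mrpl23 at 89.0 CPM, and for the share on mitochondrial ribosomal proteins at 0.405%. IL-33 7 was high for Rpl22l1 at 45.8, Mycl at 32.0 and Mycn at 10.2 CPM and for the ratio of Rpl22l1 to Rpl22 at 16.5%, and low for Npm1 at 513 CPM and for the ratio of Rps27l to Rps27 at 20.8%. Rpl3l was high in vehicle 8 at 3.21 CPM and in IL-33 1 at 2.04 CPM.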

How the results depend on the processing

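In each alternative run, 0 members had an adjusted p under 0.05. With all tumors, members at an unadjusted p under 0.05 numbered 0 by edgeR, 2 higher by DESeq2 (Rps24 and Rps14) and 1 lower without a filter on low counts (Rps21), and with 1 or 2 tumors left out 0 to 3 were higher (3 without vehicle 4 and IL-33 7, 1 without vehicle 4) and 0 to 4 lower (4 without vehicle 1 or 3, 3 without vehicle 2, 5 or 6, 2 without vehicle 8, and 1 without vehicle 7, IL-33 1 or IL-33 3). The median log2 fold change over the members of -0.42 turned to 0.13 under DESeq2, 0.12 under limma voom with sample weights and 0.0052 under length correction by coding transcript, and it ranged from -0.49 to 0.18 with tumors left out, with 0.15 without vehicle 4 as the only sign change from 1 tumor. Members with a fitted value above 0 numbered 1 by edgeR, 65 under DESeq2, 81 under limma voom, 40 when scaled to the members' summed counts, 27 and 44 under length correction by exon union and by coding transcript, 9 with the replicate block, 40 with the block and length correction, and 1 to 82 with tumors left out (82 without vehicle 4 and IL-33 7, 81 without vehicle 4, 4 without IL-33 4 or 8, 3 without IL-33 7, 2 without vehicle 8). DESeq2 and limma voom with sample weights can each reduce the pull of an outlying tumor such as vehicle 4. The cause of these shifts was not tested. At an unadjusted p under 0.05, edgeR counted 9.99% of all genes higher and 1.17% lower, and DESeq2 2.52% and 1.59%. Without vehicle 4 the shares were 8.96% and 0.708% by edgeR and 2.46% and 1.28% by DESeq2. By edgeR 58.3% of all genes lay above 0, and 60.8% without vehicle 4. For the other runs, here and below, no share over all genes is given, so their counts describe the members only.

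Chosen after seeing the data, fits without vehicle 4 gave 4 members higher at an unadjusted p under 0.05 with DESeq2 and 4 with length correction, and a median log2 fold change over the members of 0.16 (81 members above 0, DESeq2), 0.17 (79, length correction), 0.0023 (44, scaled to the members) and 0.19 (82, replicate block). The log2 difference in share ranged from -0.12 to 0.14 with tumors left out. The labels do not say whether the replicate numbers pair the tumors, and no clear sign of pairing was seen. Deviations of same-numbered tumors correlated from -0.32 to 0.35, with 4 of 8 over 0.1, and 1 of 8 vehicle tumors correlated best with its own number. With the replicate block, 0 members were called and the median was -0.11, and in the paired sign-flip test of the ratios the adjusted p was 0.945 for each pair. Of the 27 named members, 22 changed sign without vehicle 4. Precision is limited by the spread between tumors, not by depth, except for Rpl3l and Rpl36a-ps1.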
